A study of Mus musculus with 16 samples.

Results

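Axon guidance ligands and receptors steer growing axons toward or away from their targets, and 35 of their genes were followed here among the 22241 protein-coding genes of the GENCODE annotation of the mouse genome (mm9). The genes were taken by family name and not by a measured value, although earlier results of these data were known when they were chosen. Not every gene of these names was included. They were 14 Eph receptors, 8 ephrins, 6 genes of the Slit and Robo family and 7 genes of the netrin, Dcc and Unc5 family. A gene was counted as bound when a peak of the total Jarid2 list or of the list for Jarid2 dimethylated at the lysine K116 (Jarid2-K116me2) had any base within 5 kb of one of its transcript starts (TSS). A peak was found for 25 of the 35 genes, and the other 10 had none in either list, as did 83.2% of all protein-coding genes.

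The Jarid2 and Jarid2-K116me2 ChIP-seq was made in E14, a mouse ESC line grown undifferentiated in serum with LIF, from 1 sample per antibody and without replicates. The H3K27me3 ChIP-seq was made in 3 other ESC lines: Jarid2 -/- ESC (KO), the same KO ESC rescued with a BAC carrying Jarid2 (WT), and the KO ESC rescued with a BAC carrying Jarid2 K116A, in which this lysine is replaced and cannot be methylated. All 3 lines thus carry the deletion, and each condition is represented by 1 line. Each line was examined as undifferentiated ESC in serum with LIF (ES) and as embryoid bodies (EBs) formed by hanging drop after removal of LIF for 8 days (EB), with 2 samples per line and stage. The study's methods call the 2 samples biological replicates. The lists contain no measure of Jarid2 itself, and the labels of the lines could not be checked by it.

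Ephrins are ligands held on the cell surface. They bind Eph receptors, the largest family of receptor tyrosine kinases, and signal in both cells at a contact. Slits are secreted repellents read by Robo receptors, and netrins are secreted cues that attract axons through Dcc and repel them through Unc5 receptors. In ESC many genes of later development lie under Polycomb Repressive Complex 2 (PRC2), which trimethylates histone H3 at lysine 27 (H3K27me3), commonly at CpG-rich promoters. Jarid2 is a cofactor of PRC2 and, through its lysine K116, also a substrate of it.

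The DNA at these promoters was read from the reference genome of the same build as the peaks. The 200 bases just upstream of a TSS are shown for the gene with the widest Jarid2 peak of each family and, where the family has one, for its first gene without a peak, so that bound and unbound promoters can be compared. Each sequence is written 5′ to 3′ on the strand of its gene, and capitals mark CpG dinucleotides. Those of Epha7 (chr4:28742379-28742578, plus strand), Efna5 (chr17:63230667-63230866, minus strand) and Ntn1 (chr11:68200515-68200714, minus strand) lay within the Jarid2 peak, as did 104 of the 200 bases of Slit2 (chr5:48374194-48374393, plus strand). Those of Epha1 (chr6:42323268-42323467, minus strand), Efna1 (chr3:89085065-89085264, minus strand) and Robo1 (chr16:72663194-72663393, plus strand) were free of peaks.
Epha7: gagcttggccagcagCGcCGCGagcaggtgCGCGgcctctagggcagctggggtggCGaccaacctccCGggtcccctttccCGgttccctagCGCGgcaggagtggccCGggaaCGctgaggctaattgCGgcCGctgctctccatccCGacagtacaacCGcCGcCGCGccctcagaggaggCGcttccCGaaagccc
Epha1: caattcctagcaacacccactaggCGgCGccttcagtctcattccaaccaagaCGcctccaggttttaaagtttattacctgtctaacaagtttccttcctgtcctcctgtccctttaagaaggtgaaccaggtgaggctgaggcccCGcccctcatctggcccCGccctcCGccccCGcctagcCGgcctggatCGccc
Efna5: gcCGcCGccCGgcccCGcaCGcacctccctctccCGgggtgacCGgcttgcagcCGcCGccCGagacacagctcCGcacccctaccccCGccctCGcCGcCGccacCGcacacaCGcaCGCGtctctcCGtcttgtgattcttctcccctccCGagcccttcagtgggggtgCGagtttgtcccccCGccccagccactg
Efna1: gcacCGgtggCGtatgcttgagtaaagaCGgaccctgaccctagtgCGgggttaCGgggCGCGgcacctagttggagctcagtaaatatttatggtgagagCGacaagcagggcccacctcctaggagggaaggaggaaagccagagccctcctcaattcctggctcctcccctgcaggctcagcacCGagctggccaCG
Slit2: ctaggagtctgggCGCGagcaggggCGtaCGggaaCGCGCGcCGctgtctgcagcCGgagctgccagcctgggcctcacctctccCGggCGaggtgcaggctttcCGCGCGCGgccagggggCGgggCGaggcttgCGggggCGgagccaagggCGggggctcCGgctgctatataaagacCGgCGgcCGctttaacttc
Robo1: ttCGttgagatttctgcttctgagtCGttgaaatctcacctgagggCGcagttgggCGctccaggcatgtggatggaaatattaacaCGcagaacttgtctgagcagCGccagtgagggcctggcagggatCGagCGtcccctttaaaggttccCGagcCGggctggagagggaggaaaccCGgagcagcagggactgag
Ntn1: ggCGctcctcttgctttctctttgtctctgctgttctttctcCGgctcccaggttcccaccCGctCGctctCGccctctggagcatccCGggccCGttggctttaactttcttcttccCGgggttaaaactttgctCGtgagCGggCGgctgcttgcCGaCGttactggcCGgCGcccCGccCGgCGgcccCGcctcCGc
The 4 bound promoters shown held 21, 23, 24 and 20 CpG for Epha7, Efna5, Slit2 and Ntn1. For Epha7 and Ntn1 these lie at inner starts. The 5′ end of Ntn1, also under a Jarid2 peak, held 4 CpG in its 200 upstream bases, fewer than any of the unbound promoters shown. The 3 promoters shown without a peak held 9, 10 and 11 CpG for Epha1, Efna1 and Robo1. All 3 were still above the median of 7 CpG over the 200 bases upstream of the 5′ ends of all protein-coding genes, of which 90.4% held at least 1 CpG.

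Across the whole set the same comparison was less sharp. Over 1 kb around the 5′ end, the ratio of observed to expected CpG had a median of 0.761 for the 24 guidance genes with a Jarid2 peak, from 0.334 for Epha10 to 0.98 for Unc5b. It had a median of 0.675 for the 11 without, from 0.517 for Epha1 to 0.814 for Ephb2. The ranges thus overlapped, and the 11 genes without a Jarid2 peak had a median close to that of the 3688 genes with one in the genome (0.681), and above that of the 18553 genes without one (0.477). The GC share had nearly equal medians of 62.2% with and 62.1% without a Jarid2 peak. These values describe the reference sequence and carry no error.

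**Figure D1:**
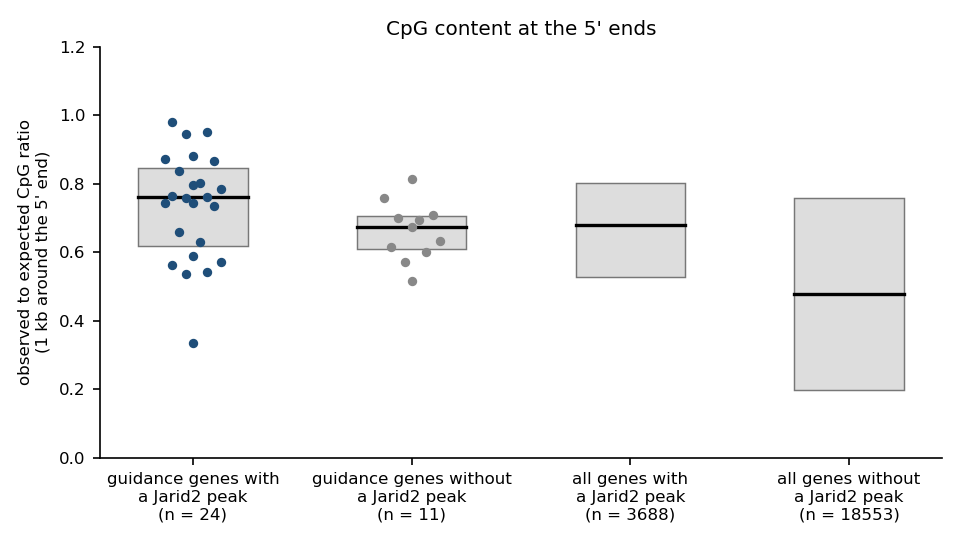
Observed to expected CpG ratio in 1 kb around the 5′ end, for guidance genes with and without a Jarid2 peak (points, 1 per gene) and for all protein-coding genes with and without one. Boxes span the quartiles and lines mark the medians, which were 0.761, 0.675, 0.681 and 0.477 from left to right.

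Peaks were found at most of the guidance genes, and their share varied between the families. Jarid2 peaks lay at 24 of the 35 genes (68.6%), against 16.6% of all protein-coding genes. Jarid2-K116me2 peaks lay at 25, against 14.7% of all genes, and peaks of both antibodies at 24, against 14.5%. No guidance gene had a Jarid2 peak alone (2.1% of all genes), and Ephb2 was the only one with a Jarid2-K116me2 peak alone (0.175% of all genes). Of the 35 genes, none of the netrin, Dcc and Unc5 family was without peaks (7 of 7 with both). Slit and Robo (5 of 6), ephrins (5 of 8) and Eph receptors (7 of 14) followed. These shares hold for the listed genes only, since Robo4, Ntn3 and Ntn5 are counted with the other guidance genes below. These families are small and hold related genes, and no test was made between them.

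The files hold no read counts, so peaks were compared by their score, which is −10 × log10 p. The score grows with depth, and it piles up at 3100, so that genes at this ceiling cannot be ranked. Over the bound guidance genes the highest score per gene had a median of 1427.4 for Jarid2, against 750.4 over all 3688 genes with a Jarid2 peak. For Jarid2-K116me2 the medians were 1560.5 and 1062.0. The ceiling was reached by 7 of the 24 genes for Jarid2 (29.2%, against 20.2% of all bound genes) and by 8 of the 25 for Jarid2-K116me2 (32.0%, against 26.7%).

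**Figure D2:**
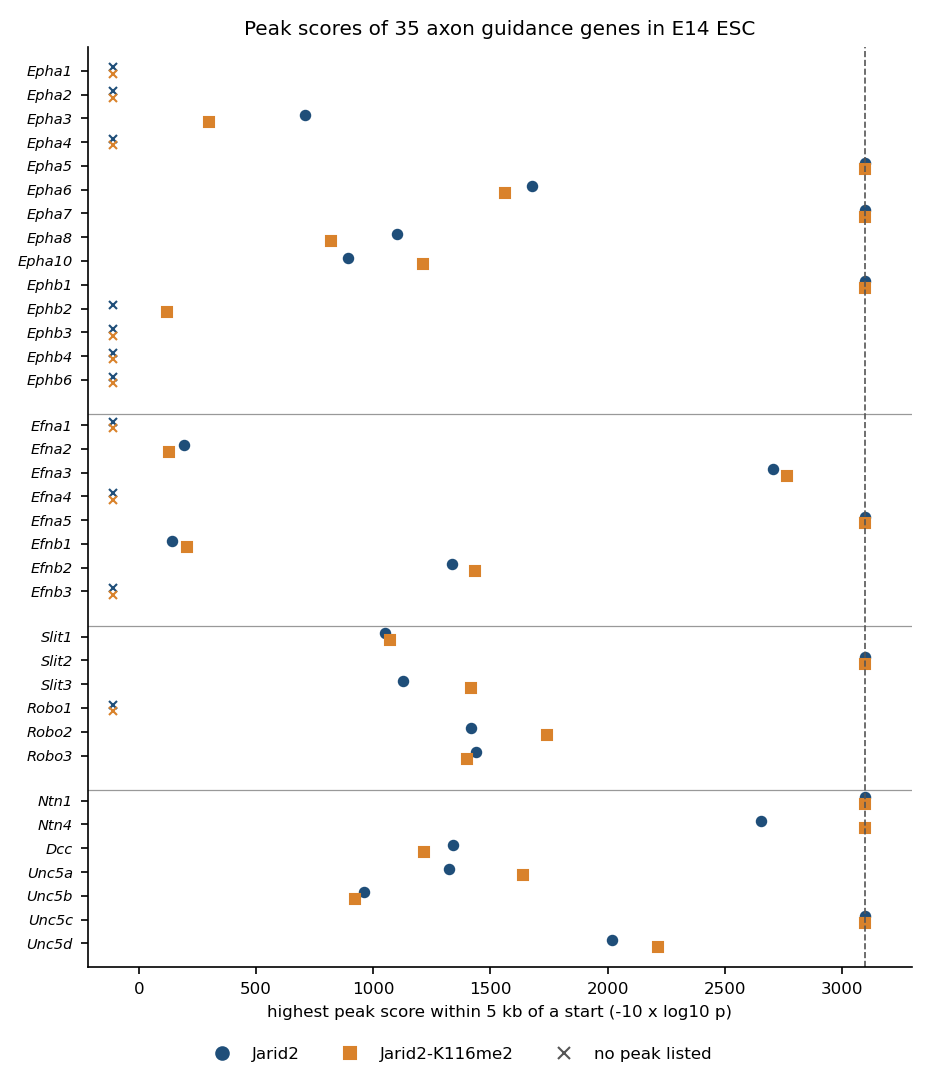
Highest score (−10 × log10 p) of a Jarid2 peak (circles) and a Jarid2-K116me2 peak (squares) within 5 kb of a TSS of each gene, by family, from 1 sample per antibody. Crosses mark genes with no peak listed, and the dashed line is the ceiling of 3100, with 7 genes there by the Jarid2 list and 8 by the other.

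Among the Eph receptors, 7 of 14 had peaks of both antibodies. Epha5, Epha7 and Ephb1, receptors known from retinal and forebrain wiring, reached the ceiling of 3100 with both antibodies. Epha6 scored 1678.33 for Jarid2 and 1560.46 for Jarid2-K116me2, and Epha8 scored 1099.45 and 817.87. Epha3 had the most uneven pair of the set, scoring 708.67 for Jarid2 but 299.35 for Jarid2-K116me2, at a ratio of 0.422 where the median over the 16 genes below the ceiling was 1.02. Epha10, whose product lacks an active kinase, had 3 peaks with each antibody. Its strongest was not at a start but centred 4660 bp upstream of the start of a short transcript inside the gene, at chr4:124570860-124573112 with a score of 890.88 for Jarid2. The peak of Ephb2 for Jarid2-K116me2 was narrow (764 bp) and weak (117.74), and no Jarid2 peak was listed there.

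No peak was listed at Epha1, Epha2, Epha4, Ephb3, Ephb4 or Ephb6. Epha2 is known from epithelial cells, Ephb4 marks venous endothelium, and Ephb6, like Epha10, lacks an active kinase. The unbound genes were thus mixed between both classes of receptor, with 3 of 9 Epha genes and 3 of 5 Ephb genes.

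Among the ephrins the Jarid2 scores had the widest range of the 4 families. Efna5, a repellent in the map of retinal axons on the midbrain, reached 3100 with both antibodies over a Jarid2 peak of 6286 bp (chr17:63227661-63233946). Efna3 scored 2708.17 for Jarid2 and 2765.82 for Jarid2-K116me2, and Efnb2, the arterial ephrin, 1336.76 and 1432.8. Efna2 and Efnb1 stood at the low end. Efna2 scored 193.02 and 126.16, and Efnb1 scored 139.95 and 203.04, over Jarid2 peaks of 960 bp and 1027 bp that began just downstream of the start without covering it. Efna1, Efna4 and Efnb3 had no peak. Efna1, Efna3 and Efna4 are neighbours on chromosome 3, within 66.3 kb, and the peak of Efna3 was the only one at this cluster, although the gene bodies of Efna3 and Efna4 are 10.4 kb apart.

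The Slit and Robo family was bound at intermediate scores. Slit2, a midline repellent, was at the ceiling with both antibodies. The other 4 bound genes were close together, from 1051.91 for Slit1 to 1438.88 for Robo3 with Jarid2. Robo3, the receptor that lets commissural axons cross the midline, was at 1401.77 for Jarid2-K116me2, Robo2 at 1740.45 and Slit3 at 1416.02. Robo1 was without peaks, although it lies 846 kb from Robo2 on chromosome 16, which scored 1415.92 for Jarid2.

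The ligand Ntn1, the netrin of the floor plate, had the most peaks of the set, 6 for Jarid2 and 2 for Jarid2-K116me2. The strongest Jarid2 peak (chr11:68196580-68202216, at the ceiling) lay over the starts of shorter transcripts inside the gene, and the next (chr11:68210461-68214708, 1785.69) over the 5′ end. The other 4 Jarid2 peaks scored between 68.11 and 185.22 and had no Jarid2-K116me2 counterpart. The summed width for Jarid2 was 13641 bp against 6666 bp for Jarid2-K116me2. Ntn4, a netrin of basement membranes, scored 2655.36 for Jarid2 and 3100 for Jarid2-K116me2. Among the receptors, Dcc scored 1340.1 and 1214.79, Unc5a 1322.46 and 1637.92, Unc5b 962.34 and 922.05, and Unc5d 2019.09 and 2216.87, while Unc5c was at the ceiling with both.

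The Jarid2 peaks were wider than those of Jarid2-K116me2. In all 24 genes with both, the summed Jarid2 width exceeded that of Jarid2-K116me2, by a median of 1.215-fold, which was close to the median of 1.237-fold over all genes with both. The lowest ratio was 1.048 at Dcc and the highest 2.245 at Epha3. In score neither antibody led. Among the 16 genes below the ceiling with both, Jarid2-K116me2 scored higher in 9 and Jarid2 in 7, close to the 57.1% of all such genes where Jarid2-K116me2 scored higher. Of the 31 Jarid2 peaks, 23 covered a TSS of their gene. With 1 sample per antibody, none of these differences could be set against a replicate error.

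**Figure D3:**
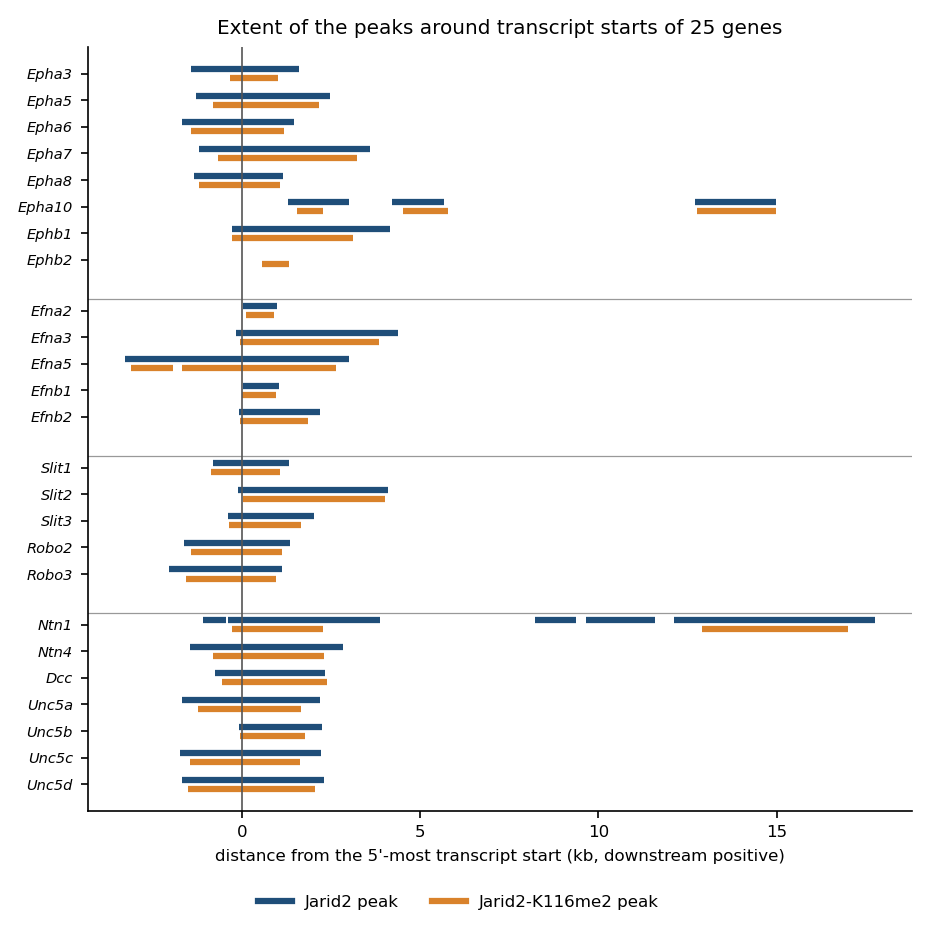
Extent of each Jarid2 (upper bars) and Jarid2-K116me2 (lower bars) peak of the 25 genes with a peak, in kb from the 5′-most annotated TSS of the gene, downstream to the right. The peaks of Ntn1 reach furthest into the gene, those of Efna2 and Efnb1 begin at the TSS, and Ephb2 has a Jarid2-K116me2 peak only.

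Of 65 other guidance genes, 35 carried a Jarid2 peak (53.8%). The share was 13 of 20 for semaphorins, secreted or membrane-bound repellents, with Sema5b and Sema6a at the ceiling. It was 6 of 11 for their receptors, the plexins and neuropilins, of which 5 were at the ceiling, among them Nrp1 and Nrp2. It was 7 of 10 for other receptors and ligands, with Ntng1 and Ntng2 at the ceiling. Ntn3 was among the 7, while Ntn5, Robo4 and Neo1 had no peak of either antibody. It was lowest, 9 of 24, for the cytoplasmic transducers that carry the signal to the cytoskeleton, with a median score of 253.7 and with Ngef (2884.56) and Vav3 (1331.03) highest.

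H3K27me3 was then followed at the same genes as the percent of bases within 5 kb of a TSS covered by broad peaks. The lists were of unequal length, which bears on every value of coverage. They ran from 1478 peaks in ES WT replicate 1 to 14125 in EB KO replicate 2, and in ES each replicate 1 list was shorter than its replicate 2. Since ES WT replicate 1 stood apart, ES results are given with and without it. In bulk chromatin, a mark in fewer cells and less of the mark per cell cannot be told apart. As a look at the stages, 2 of 8 pluripotency genes rose in EB, against 24.8% of all genes in the test given below. These were Klf4 and Fgf4, uncovered in all 6 ES samples and 18.3% to 85.7% covered in the EB samples. Nanog and Zfp42 stayed at 0 in all 12, Pou5f1 was covered in 1 sample, and Sox2, Esrrb and Tcfcp2l1 did not pass. Of 7 early lineage genes, Olig2 rose by 54.1 points (limma adjusted p = 0.00246), and none fell, against 0.795% of all genes tested. At Klf4, Fgf4 and Olig2 each EB sample thus lay above each ES sample, as in 6.27% of all genes tested. No other gene of these lists passed. The study's clustering by all H3K27me3 peaks placed ESC and EBs apart.

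In ES the mark lay mostly at genes with a Jarid2 peak. In both ES KO replicates 15 of the 35 genes had a H3K27me3 peak in the window, against 10.5% of all genes. In both ES WT replicates there were 5, against 3.39%, and 22 when replicate 2 was taken alone. In both ES K116A replicates there were 17, against 12.5%. All of the genes with a peak in both ES replicates of a line had a Jarid2 peak in E14, so that they were 15, 5 and 17 of the 24 with one. Among all genes with a Jarid2 peak the shares were 53.6%, 18.8% and 62.7% for ES KO, WT and K116A. In EBs the numbers were 18 for KO (23.1% of all genes), 15 for WT (15.3%) and 20 for K116A (17.8%), with 1, 0 and 1 without a Jarid2 peak. Of the 11 genes without a Jarid2 peak, 6 (Epha1, Epha2, Epha4, Ephb3, Efna4 and Robo1) were at 0 in all 12 samples. Efna1 and Efnb3 had a peak in ES KO replicate 2 alone, and Ephb4 and Ephb6 in ES K116A replicate 2 alone. Ephb2, with its weak Jarid2-K116me2 peak, was covered in 7 samples, to at most 5.19%.

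**Figure D4:**
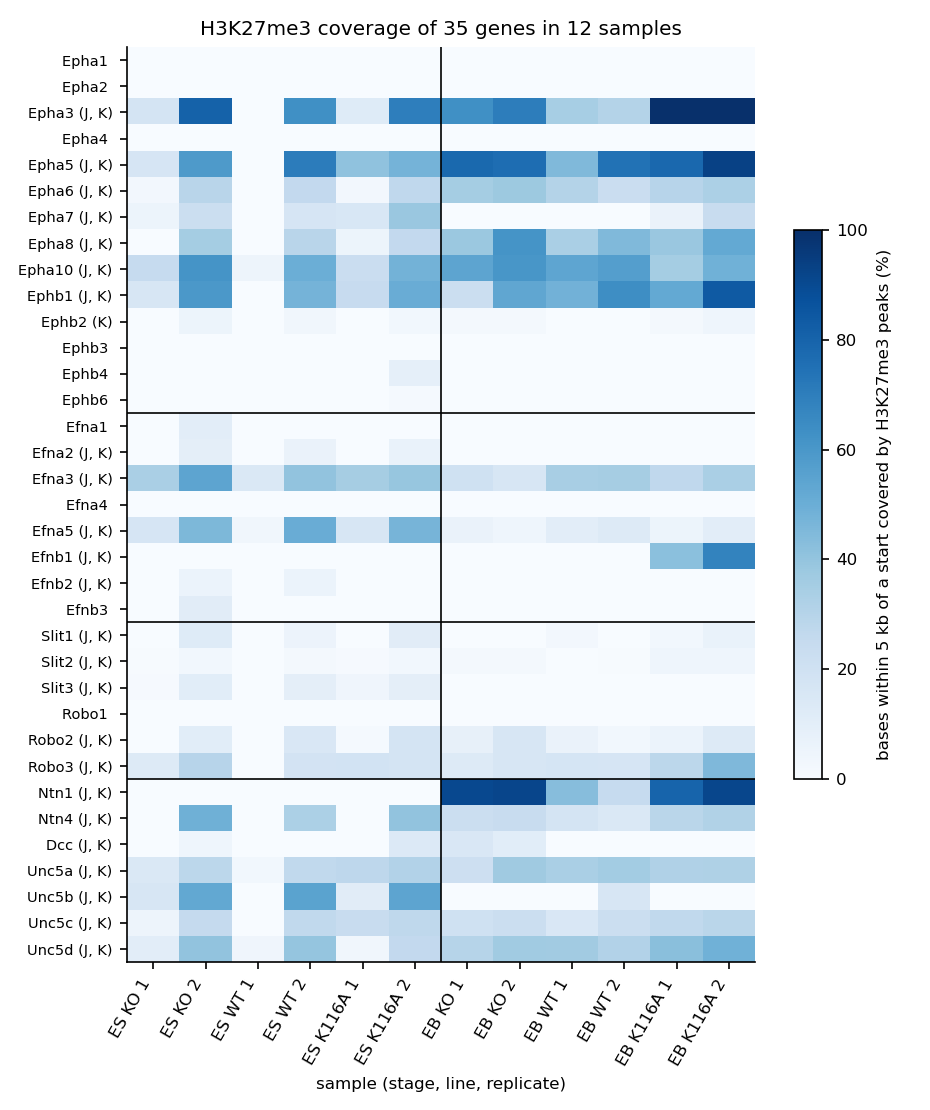
Percent of bases within 5 kb of a TSS covered by H3K27me3 broad peaks (colour, 0 to 100%) for the 35 genes (rows, by family) in the 12 samples (columns). Letters mark genes with a Jarid2 (J) and a Jarid2-K116me2 (K) peak in E14. Ntn1 is empty in the 6 ES samples and covered in the 6 EB samples, and Efnb1 is covered in EB K116A only.

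Differences in coverage were tested with limma over the 7044 genes covered in at least 2 of the 12 samples, with Benjamini-Hochberg adjustment and a threshold of 0.05, and are given in percentage points with their standard error. The spread of a gene was estimated over all 6 groups together, so groups at 0 in both samples lowered its standard error and p-value. This held for the ES groups of Ntn1 and for every group but EB K116A of Efnb1. It also held, among others, for ES WT, EB WT and EB K116A of Dcc, the EB groups of Slit3, and EB KO and EB K116A of Unc5b. Groups with a wide gap between their samples raised the standard error, such as ES WT of Epha3, with 0% and 63.0%. The 24 guidance genes with a Jarid2 peak and Ephb2 entered this test. Between EB and ES, taken over the 3 lines, 3 of these 25 rose (Ntn1, Efnb1 and Epha8), against 24.8% of all genes tested. None fell, against 0.795%. The median difference was 2.71 points over the 25 genes and 4.61 over all genes tested, and 16 of the 25 were higher and 9 lower.

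Ntn1 had the largest difference of the 25. It was at 0 in all 6 ES samples, although it carried the most Jarid2 peaks in E14. In EBs it was covered to 90.6% and 91.5% in KO, 43.2% and 24.6% in WT, and 79.7% and 91.3% in K116A. Each EB sample thus lay above each ES sample, which held for Ntn1 alone among the 25 genes and for 6.27% of all genes tested. No guidance gene had each EB sample below each ES sample, against 0.071% of all genes tested. The EB minus ES difference was 70.16 ± 5.45 points (SE, limma adjusted p = 0.00163). With every ES sample at 0, Ntn1 met the filter of at least 2 covered samples only through EB, the stage in which it was called higher. The call and the lack of overlap between the stages are conditional on that. Of the 24 guidance genes with a Jarid2 peak, Ntn1 and Efnb1 were uncovered in all ES samples, as were 8.7% of all genes with a Jarid2 peak. In EB KO replicate 2, 1 H3K27me3 peak of 23536 bp spanned both of the strong Jarid2 peaks of Ntn1. In both EB WT samples the 5′ TSS was covered but the inner starts lay in gaps between peaks, the widest of which were 4037 bp and 3446 bp. The 4 samples of EB KO and EB K116A had the mark over both.

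Epha8, an Eph receptor of the midbrain, was covered in ES to 0% and 35.2% in KO, 0% and 29.2% in WT, and 5.33% and 26.1% in K116A. In EBs it was covered to 38.2% and 61.6% in KO, 33.8% and 44.5% in WT, and 38.6% and 52.2% in K116A. The groups overlapped, since the lowest EB sample lay below the highest ES sample. The difference of 28.86 ± 9.14 points had an adjusted p of 0.0496 (limma), and it passed 0.05 in 3 of the 12 fits that left out 1 library, with values from 0.0245 to 0.132. Without ES WT replicate 1 it was at 0.112, and it was lost in 4 of the 6 other settings tried.

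Efna5 and Unc5b had lower values in EB without passing the threshold. Efna5 was covered in ES to 16.8% and 45.5% in KO, 3.33% and 50.4% in WT, and 15.9% and 46.9% in K116A. In EBs it stood at 6.4% and 4.63% in KO, 10.4% and 12.9% in WT, and 5.28% and 10.4% in K116A. Unc5b, a netrin receptor of vessels and axons, was covered in ES to 16.1% and 52.5% in KO, 0% and 54.9% in WT, and 11.3% and 53.9% in K116A. In EBs it was at 0 in 5 of 6 samples and at 15.7% in WT replicate 2. In both genes ES WT replicate 1 lay below the highest EB sample, as did ES K116A replicate 1 for Unc5b, and the other ES samples lay above all EB samples. The EB minus ES differences were −21.48 ± 9.46 points for Efna5 (limma adjusted p = 0.127) and −28.84 ± 11.62 for Unc5b (0.1). Without ES WT replicate 1 both passed, with −29.33 points (limma adjusted p = 0.0436) and −37.98 points (0.045), and Slit3 passed with −7.36 points (0.0463). In that fit 2.1% of all genes tested fell and 16.6% rose, the latter with Ntn1 and Efnb1 among them. Of the 12 fits with 1 library left out, Efna5 and Unc5b passed in that one alone, and Slit3 passed also without ES KO replicate 1, as did Efna2. Epha5 rose without ES WT replicate 2 alone.

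The remaining genes chosen for the width of their Jarid2 peaks did not pass the test between the stages. Epha10 was covered in ES to 24.7% and 61.7% in KO, 4.88% and 49.7% in WT, and 22.7% and 47.8% in K116A. In EBs it was at 54.2% and 60.3% in KO, 53.9% and 56.9% in WT, and 35.2% and 48.5% in K116A, all within the ES range. Slit2, whose 16 annotated starts make a wide window, was covered to at most 4.6% of it. Its Jarid2 peak with 0.5 kb on either side was covered to 69.5% and 72.9% in EB K116A and 37.7% and 39.2% in EB KO. In EB WT this was 0% and 11.2%, and in ES it ranged from 0% to 56.0%, which was not tested. Over its window, Efna2 was covered in the replicate 2 samples of ES only, to 9.56% in KO, 6.44% in WT and 6.86% in K116A. Slit1 was likewise covered in ES in replicate 2 only, to 12.3%, 5.55% and 11.1%, and in EBs to at most 6.82%.

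By family, both EB WT replicates had a peak at 5 of 7 genes of the netrin, Dcc and Unc5 family, 6 of 14 Eph receptors, 2 of 8 ephrins and 2 of 6 genes of the Slit and Robo family. The Unc5 receptors other than Unc5b were covered in every EB sample. Unc5a ranged from 21.5% to 36.8%, Unc5c from 14.9% to 28.7% and Unc5d from 29.7% to 48.8% over the 6 EB samples. In ES they ranged from 2.9% to 31.1%, 0% to 27.3% and 3.34% to 40.3%, so that the stages overlapped in all 3. Ntn4 was at 0 in each ES replicate 1 and between 14.7% and 31.5% in EB.

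**Figure D5:**
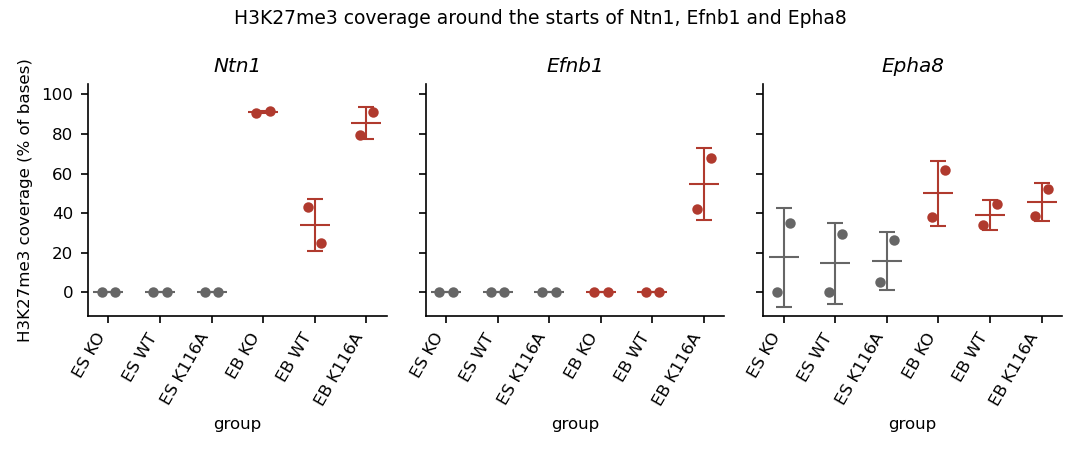
H3K27me3 coverage (percent of bases within 5 kb of a TSS) of Ntn1, Efnb1 and Epha8 in each sample (points) of the 6 groups of stage and line, with mean and SD of 2 samples (bars). Ntn1 is at 0 in ES and lower in EB WT than in EB KO and EB K116A, Efnb1 is above 0 in EB K116A alone, and Epha8 overlaps between the stages.

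The lines were then compared within each stage, to ask how loss of Jarid2 or of its lysine K116 bears on the mark. In ES no gene passed in either comparison (limma, 0% of genes tested). At an unadjusted p under 0.05 there were 15 genes for KO minus WT and 32 for K116A minus WT, none of them a guidance gene. With the replicate number as a block there were 107 and 122, with Epha7 among the latter (limma unadjusted p = 0.0226). No gene passed after adjustment in that fit. The 2 lists of ES WT held 1478 and 8579 peaks, and with such a spread the test could miss differences between the lines. Without ES WT replicate 1 there were 3 calls in each comparison, again without a guidance gene, and no guidance gene passed in ES in any of the 12 fits with 1 library left out. No other tool was run.

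In EBs Ntn1 was the only guidance gene past the threshold with more H3K27me3 in KO than in WT, against 17.8% of all genes tested, and none passed with less, against 0.256%. The difference was 57.1 ± 9.45 points (limma adjusted p = 0.00372), and it passed in all 12 fits with 1 library left out (0.0053 to 0.0473). The EB KO lists were also the longer ones, with 10164 and 14125 peaks against 6852 and 8446 in EB WT, and by the study's account both EB KO samples had more reads than either EB WT sample. With all lists held to the 1478 peaks of highest score, the difference was 91.04 points (limma adjusted p = 2.37e-06). With the highest peak score in the window as the measure, the adjusted p was 0.46. The KO minus WT difference of Ntn1 was also larger in EB than in ES by the interaction term (limma adjusted p = 0.0368), as in 7.25% of all genes tested, with 0.0994% lower, and it was the only guidance gene to pass. With every ES sample of Ntn1 at 0, the interaction has the same value as the EB difference. It passed in 2 of the 12 fits with 1 library left out, with 0.0764 without ES WT replicate 1, and was lost with a window of 2 kb (0.227). The K116A interaction was passed by 0.156% of all genes and by no guidance gene. Dcc, the netrin receptor, was covered in EB KO to 15.1% and 10.7% and at 0 in EB WT and EB K116A, with a difference of 12.87 ± 3.89 points (limma adjusted p = 0.0538), which passed without ES K116A replicate 1 or 2. In ES it was at 0 in 4 samples and at 4.47% and 13.4% in replicate 2 of KO and K116A.

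Between EB K116A and EB WT, Ntn1 and Efnb1 rose, against 1.31% of all genes tested, and none fell, against 0.213%. The EB K116A lists covered 23.2 and 37.2 Mb, against 19.6 and 22.5 Mb in EB WT. They held 6811 and 9866 peaks, against 6852 and 8446. By the study's account both EB K116A samples had more reads than either EB WT sample. The part of this in the calls was not tested beyond holding all lists to equal numbers of peaks. Efnb1, an X-linked ephrin known from craniofacial development, was at 0 in 10 samples and at 42.0% and 67.8% in EB K116A. The difference was 54.92 ± 7.22 points (limma adjusted p = 0.012), and it also gave Efnb1 its EB minus ES difference of 18.31 ± 4.17 points (0.0153), which thus came from 1 of 3 lines. Efnb1 met the filter of at least 2 covered samples only through EB K116A, the group in which it was called higher. Both calls are conditional on that. The mark lay mostly beside the Jarid2 peak of Efnb1, which with 0.5 kb on either side was covered to 3.9% and 25.1%. Counted from the 5′-most TSS, the nearest H3K27me3 peaks ended at −1298 bp upstream and began at 1037 bp downstream. The other annotated start of Efnb1 lies further downstream, and an H3K27me3 peak covered it in both EB K116A samples. For Ntn1 the difference was 51.58 ± 9.45 points (limma adjusted p = 0.0394), but 1 of 12 fits with 1 library left out kept it below 0.05 (0.0458 to 0.375), and without ES WT replicate 1 it was at 0.0532. With a window of 2 kb it was at 0.108. For Efnb1 the call was lost without EB WT replicate 1 or 2, with adjusted p up to 0.125, and it could not be tested without either EB K116A sample. Both EB K116A samples also covered Epha3 entirely, against 34.5% and 30.7% in EB WT, but this difference of 67.37 ± 27.58 points did not pass (limma adjusted p = 0.436). With all lists held to equal numbers of peaks, 11 guidance genes could be tested, and Epha3 (100.0 points, limma adjusted p = 1.25e-05), Ntn1 (40.12 points, 0.000587) and Robo3 (26.42 points, 0.0032) rose, against 7.54% of all genes tested in that setting, where Efnb1 could not be tested.

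Of the other guidance genes, 43 were tested. Among them 5 rose between EB and ES, against 24.8% of all genes tested, and 2 fell, against 0.795%. Over EB WT, 5 rose in EB KO, against 17.8%, and 1 in EB K116A, against 1.31%, and none passed in ES.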

How the data were processed

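Per the labels, reads were single, of 100 bp. Per the paper's methods and the submitters' processing notes, the authors mapped them to mm9 with Bowtie2 2.1.0 and removed duplicates. They called Jarid2 peaks with MACS 1.4.2 against input (FDR 0.15%) and H3K27me3 peaks with MACS2 2.0.10 in broad mode against the KO input (FDR 5%), each sample separately. The notes also name HOMER 3.17. The deposited files give each peak's position and a score: −10 × log10 p for Jarid2, a score of scale not stated for H3K27me3. The files hold no read counts, so no counting interval was computed. The study lists the reads of each sample, which are not used here.

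From these files, peaks were assigned to genes (GENCODE vM1, NCBIM37, which held all peaks within its chromosomes), and coverage by H3K27me3 was computed per sample and tested with limma 3.58.1 (trend, 6 groups) in R 4.3.3. Overlaps and tests were tested on simulated data. Python 3.11.15, numpy 2.4.6, pandas 2.3.3 and matplotlib 3.10.9 were used. Of the genes listed here, 1 stage marker matched no gene model. Efna5 has 2 gene IDs in the annotation, taken as 1 gene. Genes and lists were chosen with earlier results of these data known. Named with values were all 35 genes, with H3K27me3 per sample for genes past the threshold (3 smallest p per family and contrast) and for those with the widest and narrowest summed Jarid2 peak of each family. Slit3, Dcc and Epha3 were singled out for H3K27me3 after their values were seen. Alternatives were other windows, thresholds, transcript sets, list lengths, measures, filters, a replicate block and leaving out each library.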

Additional observations from a re-analysis of the deposited data

Results flagged for a closer look

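At Ntn1 the difference between the KO and WT lines was flagged as unlike between the stages. KO minus WT was 57.1 points higher in EB than in ES by the interaction term (SE 13.36, limma adjusted p = 0.0368), where 7.25% of all genes tested were higher and 0.0994% lower. In ES every sample of both lines was at 0, so this term restates the EB difference of 57.1 points. With WT at 0, a lower value in KO could not have shown in ES. Each condition is also 1 line. The call held in 2 of the 12 fits with 1 library left out, those without EB K116A replicate 1 or 2, and the range was 0.0416 to 0.198. It was lost with the highest score as the measure (0.808) and with a window of 2 kb (0.227). The part that the longer EB KO lists have in it was not tested beyond holding all lists to equal numbers of peaks, where the adjusted p was 2.9e-05. The K116A interaction was passed by 11 genes and by no guidance gene. Under alternatives it was passed by Ntn1 with equal numbers of peaks (0.00574), where Epha3 (0.000161) and Robo3 (0.0268) passed too, and a score of at least 50 (0.0244), and by Efnb1 with the highest score (2.08e-06) and a window of 2 kb (0.0067).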

How the results depend on the processing

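The counts of bound guidance genes stayed at 24 for Jarid2, 25 for Jarid2-K116me2 and 24 for both with windows of 1 kb and 10 kb, with coding transcripts alone and with the same lowest score in both lists. With a score of at least 200 they were 22, 23 and 22, with 22 also for both peaks overlapping by at least 50% of each. Without peaks at the ceiling the median scores were 1329.6 and 1214.8. With 300 bases around the start the median CpG ratio was 0.796.

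Counts of changed genes over all genes depended on the processing. Between EB and ES, 1805 genes were called. There were 901 with a window of 2 kb, 969 with a score of at least 50 and 769 with equal numbers of peaks, the last of these chosen after seeing the data, as were the score minimum, the highest score and the filter of at least 1 sample. For KO minus WT in EB, 1269 became 611, 666 and 336 in this order and 829 with the highest score. For K116A minus WT in EB, 107 became 203 with equal numbers and 211 with the highest score. In ES, KO minus WT gave 6 and 5 calls under the latter settings. K116A minus WT in ES gave 4 and 11, with 2 for the window of 2 kb and 1 for the score of at least 50. Leaving out 1 library each gave 1056 to 2086 for EB minus ES, 0 to 151 for KO in ES, 0 to 112 for K116A in ES, and 391 to 1311 and 4 to 213 for KO and K116A in EB. The lowest came without EB KO replicate 2 for EB minus ES and KO in EB (391), and without EB WT replicate 2 for K116A in EB. The highest in ES came without ES KO replicate 1 for KO and without ES WT replicate 2 for K116A. With 1 sample left in a group, it was taken to vary like the others.

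With the replicate number as a replicate block, the counts were 2811 for EB minus ES, 1701 and 163 for KO and K116A in EB, and 0 and 0 in ES. Deviations of same-numbered samples correlated at 0.046 to 0.741 over 15 pairs of groups, all above 0, but 11 above 0.1. Since not every pair was above 0.1 and no source ties the numbers to a shared batch, pairing was not assumed, although the 3 ES pairs were highest (0.668 to 0.741). Under the block, Ntn1, Efnb1, Epha8 (adjusted p = 0.00317), Epha5, Epha6 and Ephb1 were higher in EB (36.9% of all genes) and Unc5b (0.0271), Slit3, Efna5 (0.0438) and Epha7 lower (2.98%), and Dcc passed for KO in EB (0.0461).

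The call of Efnb1 was lost with a score of at least 50 (adjusted p = 0.287 for EB minus ES, 0.296 for K116A in EB). That of Epha8 was lost with the highest score (0.215), the window of 2 kb (0.087), the filter of at least 1 sample (0.0619) and equal numbers (0.0512), and that of Ntn1 for K116A in EB with the window of 2 kb (0.108) and the highest score (0.86). With equal numbers, Ntn1, Epha3 (0.000109) and Robo3 (0.049) were higher in EB (31.1% of all genes) and Efna3 lower (0.0129, 2.78%). No guidance gene named as called changed direction under these alternatives. Fold enrichments and q values are not used here, and alternatives based on them were left out, and a fit with no filter was not usable, since most genes had no variance. Lists of peaks without read counts cannot show weak signal below the authors' thresholds.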
